A study of Homo sapiens with 12 samples.

Results

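The genes described here encode the matrix metalloproteinases (MMP), the ADAM proteases, the ADAMTS proteases and the tissue inhibitors of metalloproteinases (TIMP). Members were all probe sets present in both deposited tables whose single gene symbol was MMP, ADAM or ADAMTS followed by a number only, or TIMP followed by 1 digit. This gave 87 probe sets of the 19033 used, for 52 of 11939 genes: 21 MMP genes, 17 ADAM genes, 10 ADAMTS genes and 4 TIMP genes. The choice used names only, not measured values.

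MMPs are zinc proteases that cut collagens, laminins and other matrix proteins outside the cell; some are secreted and some, such as MMP14, sit in the plasma membrane. Many ADAMs are membrane proteases, called sheddases, that cut growth factors, receptors and adhesion proteins off the cell surface, while others have lost the catalytic site and act in adhesion. ADAMTS proteases are secreted and cut proteoglycans, procollagens or von Willebrand factor, and TIMPs bind and block these enzymes. In prostate cancer these families are studied for matrix invasion and for the release of growth factor receptor ligands. The arrays measured mRNA, not protein or protease activity.

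Docetaxel is a taxane, a drug that stabilises microtubules, and the study compared human prostate cancer lines sensitive to it with lines selected for resistance. The parental groups were DU145, an androgen-independent line, and 22Rv1, which expresses the androgen receptor; both were cultured in RPMI with fetal bovine serum and no drug. The resistant groups were DU145-DR and 22Rv1-DR, cultured in the same medium under docetaxel, so that resistance and drug exposure cannot be told apart. Docetaxel doses, the course of selection, clonality of the resistant lines and the origin of the replicates (separate cultures or not) were not stated in what was used here. A p-value below therefore reflects the spread between arrays, which may be technical.

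Each group had 3 replicates. Replicates 1 and 2 were hybridised to a smaller array type (22215 probe sets) and deposited as a table of 8 arrays. Replicate 3 of every group used a larger one (54613 probe sets), in a table of 4 arrays processed separately. Replicates 1 and 2 were tested, and replicate 3 supplied the third parental and resistant pair per line, with no test. Changes are resistant minus parental on the scale of log2 of the intensity plus 16, which understates the change of dim genes. The floor differed: the 5th percentile of intensity was 35.8 to 38.6 on the DU145 and DU145-DR arrays of the tested table, 11.5 to 12.3 on the 22Rv1 and 22Rv1-DR arrays, and 10.9 to 11.0 on the larger array type. Intensities were therefore compared only within a line and a table. Of 5 epithelial markers, 5 were above the array's 25th percentile on both arrays in every group except DU145-DR, where CDH1 (E-cadherin) was below it; their summed intensity was 19794 to 23631 in DU145 and 8563 to 8901 in DU145-DR, and 13568 to 14448 in 22Rv1 and 8183 to 8330 in 22Rv1-DR. Of 7 fibroblast markers, the sum was 207 to 209 in 22Rv1 and 3026 to 4182 in 22Rv1-DR, nearly all of it from LUM (lumican) at 2778 and 3984. On the larger array type that sum was 1011 in 22Rv1 and 1970.3 in 22Rv1-DR, with LUM at 729 and 1698. In DU145 and DU145-DR the same sum was 569.5 to 799.9 and 631 to 797. The sum of the 3 androgen-responsive genes measured, of 5 listed, was 1148 to 1346 in 22Rv1 and 1288 to 1531 in 22Rv1-DR, and 211 to 357 and 229 to 339 in DU145 and DU145-DR. Of these, KLK2 read 885 and 826 in 22Rv1 and 1218 and 1090 in 22Rv1-DR, while KLK3 read 391 and 269 against 226 and 146. On the larger array type the androgen-responsive sum was 459 in 22Rv1 and 932 in 22Rv1-DR, with KLK3 at 69.1 and 108. Of 4 endothelial markers, 2 were above the 25th percentile on at least 1 of the 2 tested arrays in DU145 and DU145-DR, and 1 in 22Rv1 and 22Rv1-DR. Of 5 leukocyte markers measured, 3 were above it on at least 1 array in DU145 and 2 in each other group. PECAM1, KDR, PTPRC and LYZ were below it on both tested arrays in all 4 groups. The part of these marker shifts in the results below was not tested.

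Of the 52 genes, 32 passed the brightness filter and were tested: 11 MMP, 13 ADAM, 5 ADAMTS and 3 TIMP genes. In DU145-DR against DU145, ADAM12, ADAM19 and ADAMTS1 rose and ADAM8 fell. In 22Rv1-DR against 22Rv1, ADAMTS1 and ADAMTS3 rose and none fell. By limma with Benjamini-Hochberg adjustment over all 9713 genes tested, these are 4 of 32 members (12.5%) in DU145-DR, beside 11.0% of all genes, and 2 of 32 (6.25%) in 22Rv1-DR, beside 5.56% of all genes. By direction, the 3 rises (9.38%) and 1 fall (3.12%) in DU145-DR stand beside 5.53% and 5.48% of all genes, and the 2 rises and 0 falls in 22Rv1-DR beside 3.13% and 2.43%. Both shares are near the background, so the counts are not a result about these families. At an unadjusted p under 0.05 in limma there were 5 members in DU145-DR (15.6%, beside 24.1% of all genes), of which ADAM8 and ADAM22 were lower, and 5 in 22Rv1-DR (15.6%, beside 16.2%), of which ADAM15 was lower. The median log2 change over the members was 0.00 in DU145-DR and 0.10 in 22Rv1-DR, beside -0.01 and 0.01 over all genes tested.

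ADAM12, ADAM19 and ADAMTS1 were higher by at least 1 log2 unit in all 3 pairs of DU145-DR and DU145 arrays, which is 9.38% of members beside 1.56% of all genes. ADAMTS1 alone among the members met this rule in 22Rv1-DR, 3.12% beside 1.36%, and 0 members were lower by that much in all 3 pairs in either line, beside 2.54% of all genes in DU145-DR and 1.28% in 22Rv1-DR. The change differed between the lines for ADAM12, ADAM19 and ADAMTS1, 3 of 32 members (9.38%), beside 8.0% of all genes, and 7 (21.9%) had an unadjusted p under 0.05, beside 21.5% of all genes. The 22Rv1 change was the higher for 1 of them (3.12%, beside 4.48% of all genes) and the lower for 2 (6.25%, beside 3.52%).

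Replicates 1 and 2 were paired within a line in these data, and a fit that took each such pair as a block gave more calls: 7 members in DU145-DR, 6 in 22Rv1-DR and 9 for the difference, beside 35.5%, 22.1% and 31.7% of all genes. As shares these are 21.9%, 18.8% and 28.1% of the members, all below the share of all genes in that fit. The members added were ADAM22, ADAM23 and MMP14 in DU145-DR, ADAM9, ADAM10, ADAM15 and ADAM17 in 22Rv1-DR, and ADAM8, ADAM9, ADAM17, ADAM22, ADAMTS3 and MMP24 for the difference. Their values follow with their families.

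**Figure D1:**
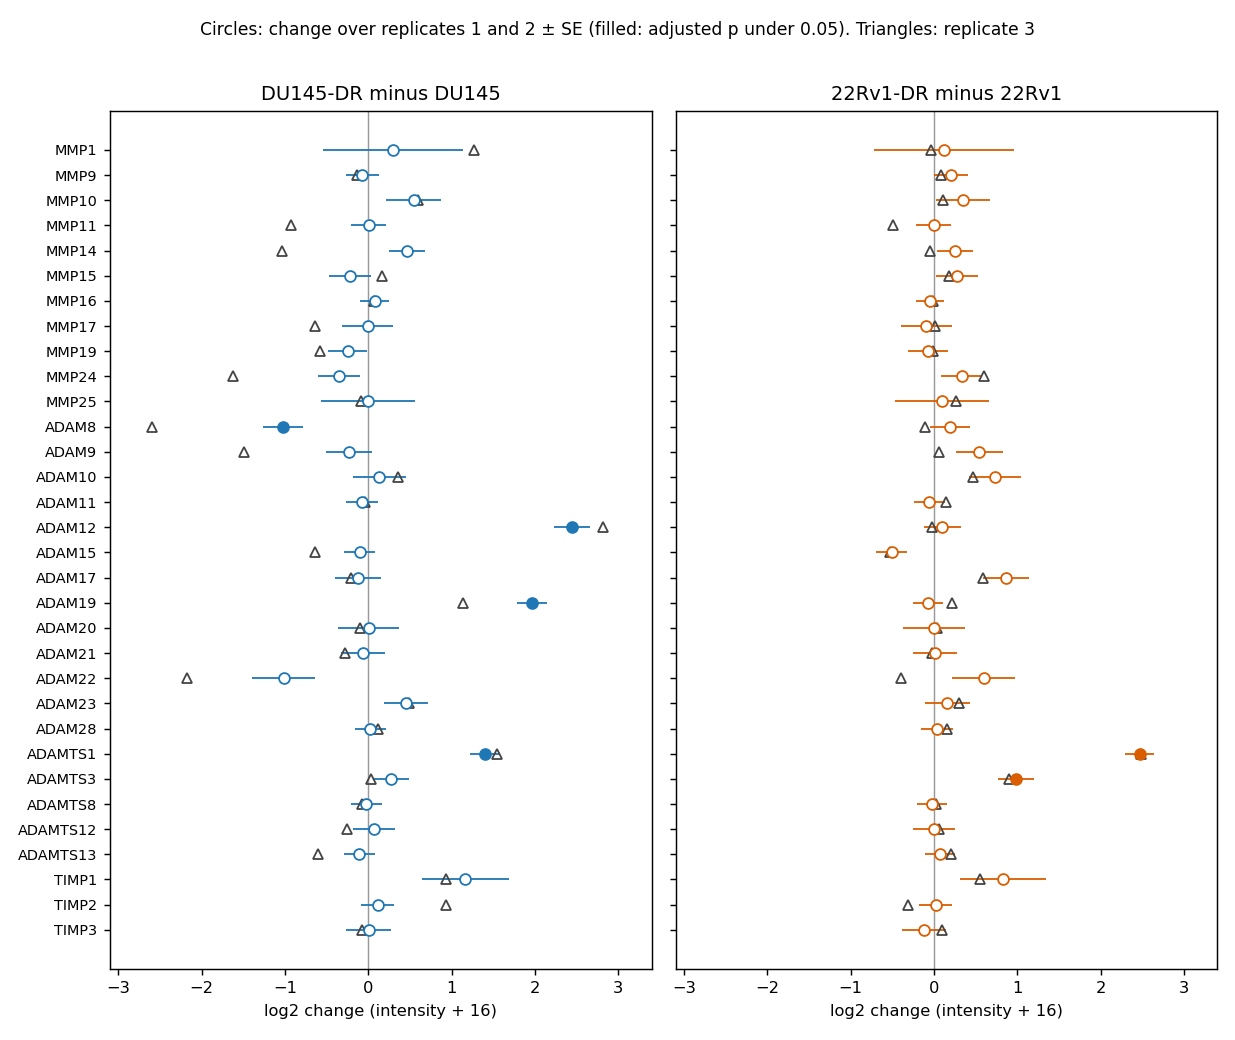
Log2 change of the 32 tested member genes (x axis, resistant minus parental; circles with bars, limma estimate ± SE over 2 arrays per group; filled circles, adjusted p under 0.05; triangles, the third pair on the larger array type, with no test), one panel per line. In DU145-DR the filled points are ADAM12, ADAM19, ADAMTS1 and ADAM8, and in 22Rv1-DR they are ADAMTS1 and ADAMTS3; most other genes lie near 0.

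The 5 member genes with a call in either line are taken in turn below, the ADAMs first. Promoter bases are shown for the 3 ADAM genes that changed in DU145-DR, since ADAM12 and ADAM19 rose together in that line and ADAM8 fell. Each is the 250 bases before the RefSeq gene start, from RefSeq on GRCh38.p14, written 5′ to 3′ on the gene's own strand, which is the minus strand for all of them. ADAM12 is read from chr10:126388478-126388727, ADAM19 from chr5:157575776-157576025 and ADAM8 from chr10:133276869-133277118. Capitals mark the E-box letters CAGGTG or CACCTG, the same hexamer on either strand, which repressors of epithelial genes such as ZEB1 and SNAI1 are known to bind.
ADAM12: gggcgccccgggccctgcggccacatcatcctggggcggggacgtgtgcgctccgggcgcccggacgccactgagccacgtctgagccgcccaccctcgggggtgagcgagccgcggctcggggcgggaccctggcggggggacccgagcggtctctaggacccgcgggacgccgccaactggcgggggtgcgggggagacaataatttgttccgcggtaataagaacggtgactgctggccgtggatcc
ADAM19: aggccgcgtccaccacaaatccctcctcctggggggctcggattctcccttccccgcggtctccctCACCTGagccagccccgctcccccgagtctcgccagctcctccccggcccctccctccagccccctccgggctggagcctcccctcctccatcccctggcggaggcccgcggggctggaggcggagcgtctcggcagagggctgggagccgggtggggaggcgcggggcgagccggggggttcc
ADAM8: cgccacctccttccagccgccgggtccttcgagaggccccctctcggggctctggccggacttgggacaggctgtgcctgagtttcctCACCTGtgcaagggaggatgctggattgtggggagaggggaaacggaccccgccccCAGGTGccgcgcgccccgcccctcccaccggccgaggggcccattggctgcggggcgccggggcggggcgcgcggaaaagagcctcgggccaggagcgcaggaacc
ADAM19 held 1 such hexamer, 184 bases before the start, ADAM8 held 2, at 106 and 162 bases, and ADAM12 held 0 in this window. Among the 30 of 52 members with a promoter in the RefSeq table, 6 held the E-box letters, beside 17.5% of 27305 promoters of the same length. The AP-1 letters TGAGTCA or TGACTCA, again one motif on both strands, were in 1 of 30 member promoters, that of MMP7, beside 4.16% of all promoters, and in none of the 3 printed. The GC box letters GGGCGG or CCGCCC, not marked by capitals, occurred in 19 of 30 members, ADAM12 and ADAM8 among them, beside 42.3% of all promoters. None of the 3 motifs contains another. A match describes letters only.

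ADAM12, known for its link to TGF-beta signalling and for shedding HB-EGF, had the largest rise of the tested members in DU145-DR. Its probe set 213790_at read 82.1 and 54.6 in DU145 and 393 and 484 in DU145-DR, and on the larger array type 25.1 in DU145 and 274 in DU145-DR. Every DU145-DR array was above every DU145 array of its table. With 2 arrays against 2, and 1 against 1 on the larger array type, such an order arises often without any change, here and below. The share of all genes with such an order was not computed. The log2 change was 2.44 ± 0.22 (SE, n = 2 arrays per group; limma adjusted p = 0.000366), and 2.82 on the third pair. In 22Rv1 it read 16 and 16.6 and in 22Rv1-DR 16.6 and 20.7, at the low end of those arrays, with a change of 0.10 ± 0.22 (limma adjusted p = 1.00). The difference between the lines, 22Rv1 change minus DU145 change, was -2.34 ± 0.31 (limma adjusted p = 0.00303).

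Not all ADAM12 probe sets moved. A second one, 202952_s_at, read 58.9 and 65.3 in DU145 against 236 and 309 in DU145-DR, a mean difference of 1.87 log2 units. The other two, 204943_at and 215613_at, differed by -0.04 and 0.02 log2 units, with 204943_at at 150.1 and 119 in DU145 and 147 and 114 in DU145-DR. A further ADAM12 probe set on the larger array type only, 226777_at, read 57.7 in DU145 and 639 in DU145-DR, and 27.3 and 29.0 in 22Rv1 and 22Rv1-DR. So 3 of 5 ADAM12 probe sets were higher by 1.87 log2 units or more in DU145-DR and the others differed by less than 0.25. When the log2 is taken with a pseudocount of 1 and the probe set is chosen again, the flat 204943_at stands for the gene and the change is -0.04 (limma adjusted p = 0.986).

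ADAM19, also called meltrin beta and known for processing neuregulin, rose alongside ADAM12 in DU145-DR. Probe set 209765_at read 143 and 161 in DU145 and 617 and 657 in DU145-DR, then 189 and 434 on the larger array type. The DU145-DR values were the higher in both tables. The log2 change was 1.96 ± 0.18 (SE, n = 2; limma adjusted p = 0.000376) and 1.13 on the third pair. In 22Rv1 and 22Rv1-DR it stayed between 13.9 and 18.9 on all arrays of both types, near their floor, with a change of -0.08 ± 0.18 (limma adjusted p = 1.00). The difference between the lines was -2.04 ± 0.25 (limma adjusted p = 0.00217). Its other probe set, 221128_at, read 48.2 to 63.1 over the 4 DU145 and DU145-DR arrays, below the 25th percentile of each of those arrays, and differed by -0.05 log2 units. Fitting all 12 arrays with the table as a block left the difference between lines at -1.66 with a limma adjusted p of 0.0772.

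ADAM8, a protease best known from leukocytes that also sheds adhesion proteins, was the only member that fell with an adjusted p under 0.05. Probe set 205180_s_at read 530.1 and 333 in DU145 and 206 and 191 in DU145-DR, and 885 against 133 on the larger array type. All DU145 arrays were above the DU145-DR arrays of their table. The log2 change was -1.02 ± 0.24 (SE, n = 2; limma adjusted p = 0.0278), and the third pair differed by -2.59. In 22Rv1 it read 61.0 and 50.9, and in 22Rv1-DR 67.6 and 64.4, a change of 0.19 ± 0.24 (limma adjusted p = 0.905). The difference between lines was 1.22 ± 0.33, with a limma adjusted p of 0.0643 and of 0.0117 with the replicate block. The call in DU145-DR rests on few arrays: without DU145 replicate 1 the change was -0.70 (limma adjusted p = 0.122), and without any 1 of the 22Rv1 or 22Rv1-DR arrays, which add only to the estimate of the spread, the limma adjusted p was 0.0553 to 0.0578, and with only the 4 arrays of the line 0.140. The second ADAM8 probe set, 205179_s_at, read 105 and 62.2 in DU145 and 115 and 60.5 in DU145-DR, and with the mean of both probe sets the change was -0.49 (limma adjusted p = 0.264).

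**Figure D2:**
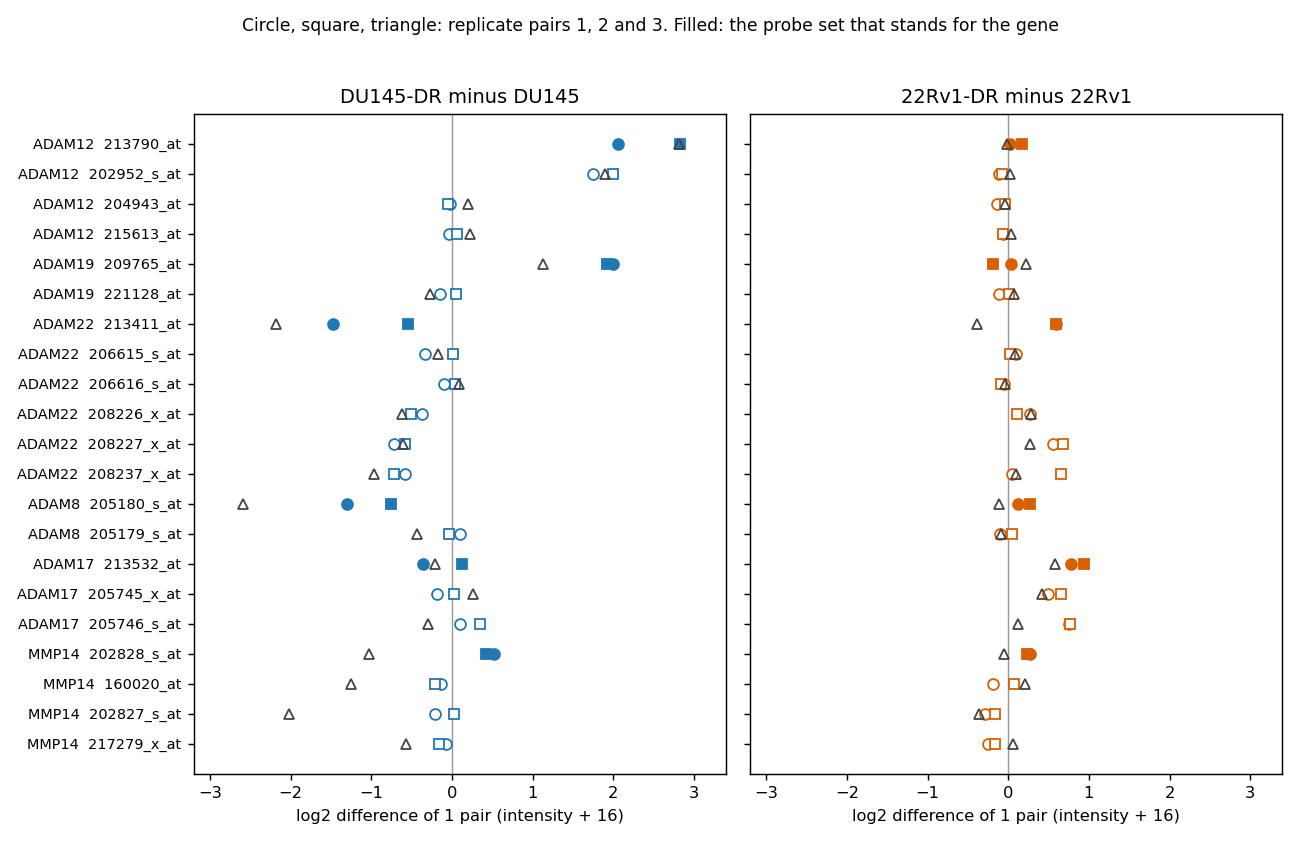
Log2 differences, resistant minus parental, of every probe set of ADAM12, ADAM19, ADAM22, ADAM8, ADAM17 and MMP14 in both tables (circle, square and triangle are pairs 1, 2 and 3; filled symbols mark the probe set that stood for the gene). In DU145, 2 of 4 ADAM12 probe sets lie at 1.75 or above in every pair and the others near 0, and all MMP14 probe sets fall below 0 on the third pair.

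The broadly expressed sheddases were bright in all groups: ADAM10, which cuts Notch receptors and E-cadherin, ADAM17, which releases TNF and ligands of the EGF receptor, and ADAM9. These 3 genes were above the array median on every tested array of both lines. In 22Rv1 and 22Rv1-DR, ADAM17 read 304 and 309 against 534 and 609, and 431 against 653 on the larger array type. The 22Rv1-DR values were the higher in both tables. Its log2 change was 0.86 ± 0.28 (SE, n = 2), with a limma adjusted p of 0.137 and of 0.0121 with the replicate block, and 0.58 on the third pair. All 3 ADAM17 probe sets were higher in 22Rv1-DR in all 3 pairs, the others by means of 0.57 and 0.76 over pairs 1 and 2. After quantile normalization its adjusted p was 0.0375.

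ADAM10 read 1053 and 1089.9 in 22Rv1 and 1698 and 1885 in 22Rv1-DR, and 1938 against 2684 on the larger array type. The change was 0.73 ± 0.31 (SE, n = 2), with a limma adjusted p of 0.293 and of 0.0271 with the block, and 0.47 on the third pair. ADAM9 read 1314 and 1287 against 1951 and 1859, a change of 0.54 ± 0.28 with a limma adjusted p of 0.409 and of 0.0132 with the block. On the third pair it read 2179.8 and 2272, a difference of only 0.06. On that pair the other ADAM10 probe sets differed by -0.22 (214895_s_at) and 0.08 (202604_x_at). ADAM9 probe sets on the larger array type only differed by -0.68 (1555326_a_at) and 0.03 (1570042_a_at). So by the probe sets tested, all 3 of these sheddases had higher values in 22Rv1-DR than in 22Rv1 in pairs 1 and 2. All 3 were past the threshold in the paired fit and ADAM9, ADAM10 and ADAM17 also with only the 4 arrays of the line (limma adjusted p = 0.0338, 0.0222 and 0.0165), but not in the fit of 8 arrays without the block. ADAM17 passed too without either DU145-DR array (limma adjusted p = 0.0234).

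In DU145-DR the same genes did not pass in either fit. ADAM17 read 1951 and 2469 in DU145 and 1520.2 and 2684 in DU145-DR, a change of -0.12 ± 0.28 (limma adjusted p = 0.924). ADAM10 read 4153 and 5518 against 3717 and 7434, and 2778 against 3566 on the larger array type, with a change of 0.13 ± 0.31 (limma adjusted p = 0.924). ADAM9 read 8192 and 12161 against 6654 and 10885, a change of -0.23 ± 0.28 (limma adjusted p = 0.759), while the third pair read 6937 and 2452, a difference of -1.49. For ADAM9 the third pair therefore lies outside the range of the tested pairs, -0.30 and -0.16. The difference between lines did not pass without the block and passed with it for ADAM17 (0.98 ± 0.39; limma adjusted p = 0.187, with the block 0.0175) and ADAM9 (0.77 ± 0.39; limma adjusted p = 0.314, with the block 0.0103). That of ADAM17 passed as well after quantile normalization and without DU145-DR replicate 2.

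ADAM15, a sheddase with an integrin-binding site, went the other way in 22Rv1-DR. It read 56.1 and 59.7 in 22Rv1 and 32.2 and 39.9 in 22Rv1-DR, and 109.9 against 71.5 on the larger array type. Each 22Rv1-DR array was below the 22Rv1 arrays of its table. The change was -0.51 ± 0.18 (SE, n = 2), with a limma adjusted p of 0.194 and of 0.0278 with the block, and -0.52 on the third pair. In DU145-DR it changed by -0.10 ± 0.18 (limma adjusted p = 0.880), with the third pair at -0.63. An ADAM15 probe set on the larger array type only, 1555896_a_at, differed by -0.49 in DU145-DR and by -0.15 in 22Rv1-DR.

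ADAM22 and ADAM23 lack an active catalytic site and act as receptors for LGI proteins in neurons. ADAM22 probe set 213411_at read 242 and 317 in DU145, 76.6 and 212 in DU145-DR, and 195 against 30.7 on the larger array type. The change was -1.01 ± 0.38 (SE, n = 2), with a limma adjusted p of 0.138 and of 0.0203 with the block, and the third pair differed by -2.18. All 6 ADAM22 probe sets had a negative mean difference over pairs 1 and 2 in DU145-DR. In 22Rv1-DR 213411_at changed by 0.60 ± 0.38 (limma adjusted p = 0.566) and differed by -0.39 on the third pair, and the difference between lines, 1.61 ± 0.53, had a limma adjusted p of 0.115 and of 0.0160 with the block. ADAM23 read 206 and 185 in DU145 and 251 and 298 in DU145-DR, a change of 0.45 ± 0.26 with a limma adjusted p of 0.363 and of 0.0391 with the block, and 0.49 on the third pair. The remaining tested ADAM genes, ADAM11, ADAM20, ADAM21 and ADAM28, changed by between -0.07 and 0.04 in both lines, and by between -0.27 and 0.15 on the third pair.

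ADAMTS1, a secreted protease that cuts the proteoglycans versican and aggrecan and is known to restrain angiogenesis, was the one member that rose in both lines. Its probe set 222162_s_at read 153 and 139 in 22Rv1 and 929 and 832 in 22Rv1-DR, and on the larger array type 86.2 and 556. In DU145 it read 58.9 and 55.7 and in DU145-DR 169 and 185, and then 13.7 and 71.0. The resistant values were the higher in both lines and tables, with only 1 array per group on the larger array type. The log2 change was 2.47 ± 0.18 (SE, n = 2; limma adjusted p = 0.000154) in 22Rv1-DR and 2.49 on the third pair, and 1.39 ± 0.18 (SE, n = 2; limma adjusted p = 0.00202) in DU145-DR and 1.55 on the third pair. Both DU145 arrays were below the 25th percentile of all probe sets there, 76.1 and 62.7, so the start of that rise is close to the floor.

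The rise was larger in 22Rv1-DR by 1.07 ± 0.25 log2 units (limma adjusted p = 0.0368, with the block 0.00469). That difference has little margin: its limma adjusted p was 0.0733 with a pseudocount of 1, 0.465 over all 12 arrays, 0.0858 and 0.0782 without DU145 replicates 1 and 2, and 0.117 to 0.188 without any 1 of the 22Rv1 or 22Rv1-DR arrays. The 2 rises themselves passed in every alternative tried. A second ADAMTS1 probe set on the larger array type only, 222486_s_at, read 20.8 and 18.1 in DU145 and DU145-DR and 21.6 and 46.5 in 22Rv1 and 22Rv1-DR, so on that array it was higher only in 22Rv1-DR. In the same 22Rv1-DR arrays the fibroblast marker LUM stood 6.04 log2 units above 22Rv1 (1.20 on the third pair), while of the 6 fibroblast markers tested it was the only one to rise. DCN, a listed fibroblast marker too dim to test, read 23.4 and 17.0 in 22Rv1 and 76.6 and 36.5 in 22Rv1-DR. On the larger array type DCN went the other way, 107.6 in 22Rv1 against 50.6 in 22Rv1-DR. VCAN, the gene of versican, rose by 1.45 ± 0.24 in 22Rv1-DR (limma adjusted p = 0.00862) and by 2.84 on the third pair.

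ADAMTS3, which trims the amino-terminal propeptide of procollagens and processes VEGF-C, rose in 22Rv1-DR. It read 124 and 103 in 22Rv1, 261 and 217 in 22Rv1-DR, and 161 against 315 on the larger array type. The 22Rv1-DR values were the higher in both tables. The change was 0.98 ± 0.21 (SE, n = 2; limma adjusted p = 0.0324) and 0.90 on the third pair. The call was lost without any 1 of the 22Rv1 or 22Rv1-DR arrays, where 1 group has a lone array assumed to vary like the others (limma adjusted p 0.122 to 0.287), and over all 12 arrays (0.389). In DU145 it read 52.0 and 35.5 and in DU145-DR 54.2 and 56.9, a change of 0.27 ± 0.21 (limma adjusted p = 0.534). The difference between lines, 0.71 ± 0.30, had a limma adjusted p of 0.216 and of 0.0377 with the block. ADAMTS8, ADAMTS12 and ADAMTS13 changed by between -0.11 and 0.08 in both lines by their tested probe sets. The third pair of these probe sets differed by -0.07, -0.25 and -0.60 in DU145-DR and by 0.02, 0.06 and 0.21 in 22Rv1-DR. On the larger array type only, ADAMTS12 226997_at read 22.3 in DU145 and 62.2 in DU145-DR, a difference of 1.03. ADAMTS13 223844_at and ADAMTS8 235649_at differed by -0.71 and -0.25 there. In 22Rv1-DR these 3 probe sets differed by 0.09, -0.29 and 0.27.

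**Figure D3:**
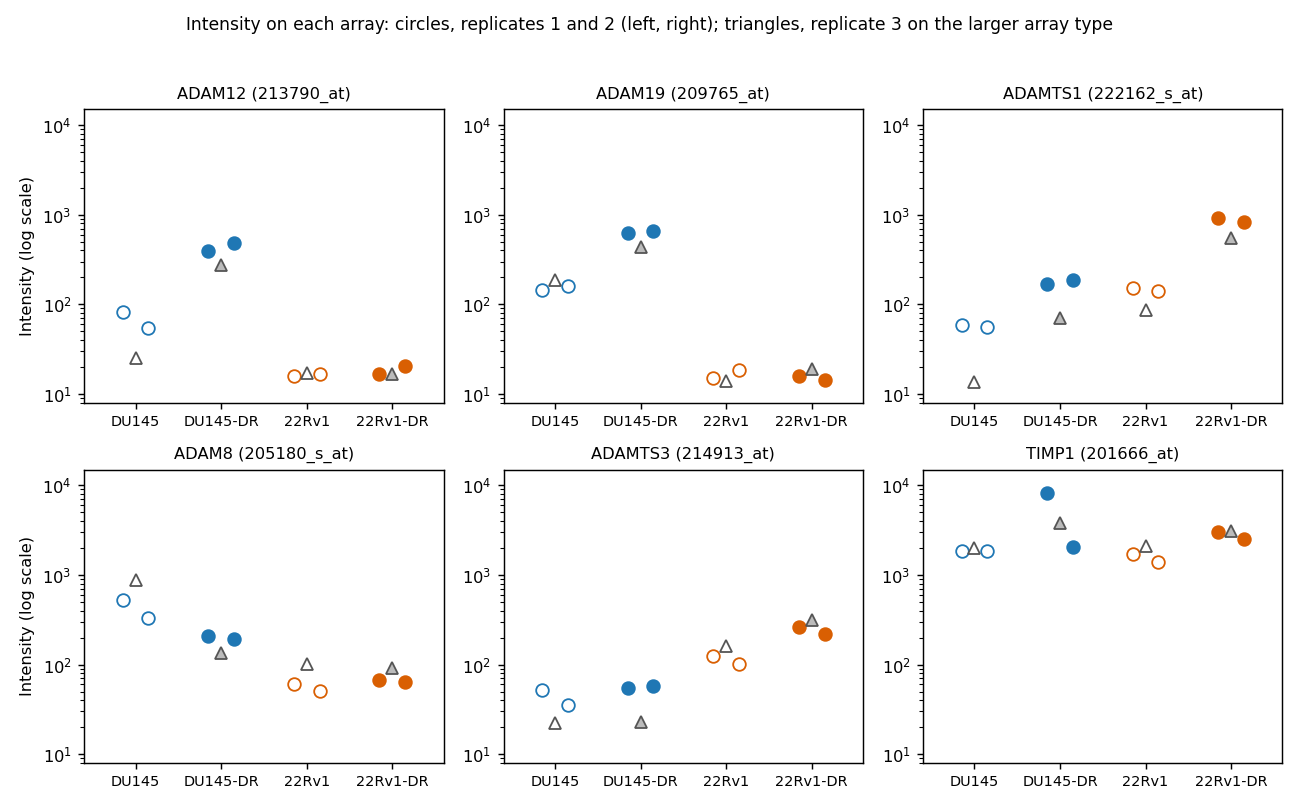
Intensity (log axis) of ADAM12, ADAM19, ADAMTS1, ADAM8, ADAMTS3 and TIMP1 on each array of the 4 groups (circles, replicates 1 and 2, left and right; open, parental; filled, resistant; grey triangles, replicate 3 on the larger array type, on its own scale). ADAMTS1 is higher in the resistant arrays of both lines, ADAM12 and ADAM19 in DU145-DR with both at the floor in 22Rv1 and 22Rv1-DR, and 1 DU145-DR array holds the high TIMP1 value of 8306.

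Of the MMP genes, 0 of the 11 tested passed limma's adjusted threshold in either line without the block, 0 had an unadjusted p under 0.05 in it, and with the block 1 passed, MMP14 in DU145-DR. MMP14 is the membrane-bound protease that activates pro-MMP2. Its brightest probe set, 202828_s_at, read 1687 and 2241 in DU145 and 2419 and 2998 in DU145-DR, a change of 0.47 ± 0.21 with a limma adjusted p of 0.230 and of 0.0130 with the block. The other 3 MMP14 probe sets went the other way, by -0.18, -0.10 and -0.12 log2 units. On the larger array type all 4 were lower in DU145-DR, by -1.03 for 202828_s_at (359.5 against 168) and by -1.26, -2.02 and -0.58 for the others. No direction can therefore be read for MMP14 in DU145-DR. In 22Rv1-DR it changed by 0.25 ± 0.21 (limma adjusted p = 0.741).

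MMP1, the interstitial collagenase, did not agree between replicates. It read 170.1 and 149 in DU145, 676 in DU145-DR replicate 1 and 50.6 in DU145-DR replicate 2, and 86.8 against 232 on the larger array type. The DU145-DR values thus lie on both sides of the DU145 values. The change was 0.29 ± 0.84 (SE, n = 2; limma adjusted p = 0.950), with pairs at 1.89, -1.31 and 1.27. Without DU145-DR replicate 1 it was -1.40 (limma adjusted p = 0.00377), and without DU145-DR replicate 2 it was 1.98 (limma adjusted p = 0.000489), so its sign in the tested table turns on which DU145-DR array is kept. In 22Rv1 and 22Rv1-DR, MMP1 read 12.4 to 16.3, at the floor.

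MMP10, stromelysin 2, which lies beside MMP1 on chromosome 11, read 72.0 and 76.1 in DU145 and 154 and 85.0 in DU145-DR, again highest in DU145-DR replicate 1. Its change was 0.54 ± 0.33 (limma adjusted p = 0.382). These 2 genes belong to a run of 9 members next to each other there (MMP7, MMP20, MMP27, MMP8, MMP10, MMP1, MMP3, MMP12 and MMP13), of which the other 7 were too dim to test. MMP9, gelatinase B, read 121 and 114 in DU145 and 99.0 and 125 in DU145-DR, a change of -0.07 ± 0.20 (limma adjusted p = 0.952), and changed by 0.20 ± 0.20 in 22Rv1-DR (limma adjusted p = 0.828). MMP24, a membrane-type MMP, read 208 and 212 in DU145 and 155 and 168 in DU145-DR and was higher in 22Rv1-DR by 0.33. The difference between lines, 0.68 ± 0.35, had a limma adjusted p of 0.320 and of 0.0365 with the block, and the third pair differed by -1.62 in DU145-DR and 0.60 in 22Rv1-DR. The other tested MMP genes (MMP11, MMP15, MMP16, MMP17, MMP19 and MMP25) changed by between -0.25 and 0.28 in both lines. On the third pair MMP11 differed by -0.92 in DU145-DR and -0.49 in 22Rv1-DR, and MMP17 and MMP19 by -0.63 and -0.58 in DU145-DR. Their remaining third-pair values lay between -0.08 and 0.26.

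MMP2, MMP3, MMP7 and MMP13 were among the 20 members whose mean exceeded the intensity of 74.0, the 40th percentile of all values, in no group. The others were MMP8, MMP12, MMP20, MMP26, MMP27, MMP28, ADAM2, ADAM5, ADAM18, ADAM30, ADAMTS2, ADAMTS5, ADAMTS6, ADAMTS9, ADAMTS20 and TIMP4. Their intensities were 26.0 to 83.9 on the DU145 and DU145-DR arrays, 8.82 to 70.03 on the 22Rv1 and 22Rv1-DR arrays and 9.45 to 51.3 on the larger array type. Values this low do not show whether the mRNA was absent, only that these probe sets passed this cut in no group. The cut was pooled over both lines. It was above the median of every tested 22Rv1 and 22Rv1-DR array (59.3 to 69.1), but near the 25th percentile of the DU145 and DU145-DR arrays (62.2 to 76.1). A gene could thus pass through low values in DU145 alone. ADAMTS20 missed the cut although it read 70.03 in 22Rv1-DR replicate 1, where the array median was 69.1.

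TIMP1, the broad secreted inhibitor of MMPs, was bright in all groups. It read 1859 and 1833 in DU145, 8306 and 2077 in DU145-DR, and 1978 against 3795 on the larger array type. Each DU145-DR array was above the DU145 arrays of its table, replicate 2 by little. The change was 1.16 ± 0.52 (SE, n = 2; limma adjusted p = 0.218), with pairs at 2.15, 0.18 and 0.93. Without DU145-DR replicate 2 the limma adjusted p was 0.000491, at a change of 2.16. DU145-DR replicate 1 thus held the highest tested value of TIMP1, MMP1 and MMP10 alike.

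In 22Rv1, TIMP1 read 1722 and 1409 and in 22Rv1-DR 3040.3 and 2539, with 2106 against 3104 on the larger array type. The 22Rv1-DR values were the higher in both tables, and the pairs were alike at 0.81, 0.84 and 0.56. The change was 0.83 ± 0.52 (SE, n = 2; limma adjusted p = 0.561). That standard error is shared by all groups in the fit, and it holds the spread of the DU145-DR arrays: without either of these the limma adjusted p was 0.0277, and with only the 4 arrays of the line it was 0.0415. TIMP2, which also takes part in the activation of pro-MMP2 by MMP14, read 440 and 385 in DU145 and 512 and 391 in DU145-DR, a change of 0.12 ± 0.20 (limma adjusted p = 0.866), while the third pair read 290.02 and 568. On the larger array type only, TIMP2 probe sets 224560_at and 231579_s_at read 2817 and 3875 in DU145 and 3421 and 4608 in DU145-DR, differences of 0.28 and 0.25. In 22Rv1 and 22Rv1-DR the tested TIMP2 probe set, 203167_at, read 25.6 to 29.0 in the tested table. On the larger array type it read 43.4 in 22Rv1 and 31.8 in 22Rv1-DR. There 224560_at read 36.8 and 30.5, and 231579_s_at 50.6 and 17.5, also lower in 22Rv1-DR. TIMP3, which is held in the matrix and also inhibits ADAM17, changed by 0.00 ± 0.27 in DU145-DR (limma adjusted p = 0.998) and by -0.12 ± 0.27 in 22Rv1-DR (limma adjusted p = 1.00).

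The larger array type held 58 further probe sets for genes of these families, 39 of them for the 52 member genes, on 1 array per group and so with no test. Of the 58, 9 differed by at least 1 log2 unit in a line. The share of all probe sets past that cut was not computed, so this count is not a result about these families. ADAMTS6, whose only probe set in both tables was too dim to test, read 40.8 in DU145 and 1009.9 in DU145-DR by 237411_at, a difference of 4.18 log2 units, and 19.8 and 76.6 in 22Rv1 and 22Rv1-DR, a difference of 1.37. Its probe set 1570351_at read 23.8 and 246 in DU145 and DU145-DR, and 21.7 and 27.7 in 22Rv1 and 22Rv1-DR. Both probe sets were thus highest on the DU145-DR array, while the dim probe set 220866_at read 15.1 in DU145 and 24.9 in DU145-DR.

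ADAMTS9, a proteoglycan-cutting relative of ADAMTS1, read 24.1 in 22Rv1 and 311 in 22Rv1-DR by 226814_at, a difference of 3.03, and 31.3 and 52.7 in DU145 and DU145-DR. Its 2 other probe sets found only on the larger array type stayed between 12.2 and 18.3. MMP16, a membrane-type MMP, read 14.1 and 88.0 in DU145 and DU145-DR and 109 and 458 in 22Rv1 and 22Rv1-DR by 223614_at, higher in the resistant array of both lines by 1.79 and 1.92. Its tested probe set, 207013_s_at, changed by 0.08 ± 0.17 and -0.04 ± 0.17 in the 2 lines. ADAM9 was lower in DU145-DR by 1555326_a_at, 666 against 97.7, on the same array where 202381_at was lower. By 1555326_a_at it was also lower in 22Rv1-DR, 108 against 61.4. ADAMTS15, a gene measured only on the larger array type, read 377 in DU145 and 152 in DU145-DR.

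Past 2 log2 units, 3 of these 58 probe sets were higher in DU145-DR (5.17%, beside 0.682% of the 41028 probe sets of the larger array type with 1 gene symbol, Y-linked and X-inactivation genes left out) and 1 was lower (1.72%, beside 1.31%). In 22Rv1-DR 1 of 58 was higher (1.72%, beside 0.400%), and 0 were lower, beside 0.551%. Of the 87 member probe sets in both tables, by the same rule, 1 was higher in DU145-DR (1.15%, ADAM12) and 3 were lower (3.45%, of MMP14, ADAM8 and ADAM22), and in 22Rv1-DR 1 was higher (1.15%, ADAMTS1) and 0 were lower. These are single arrays, and the ADAMTS6 pair of probe sets reads the same gene.

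**Figure D4:**
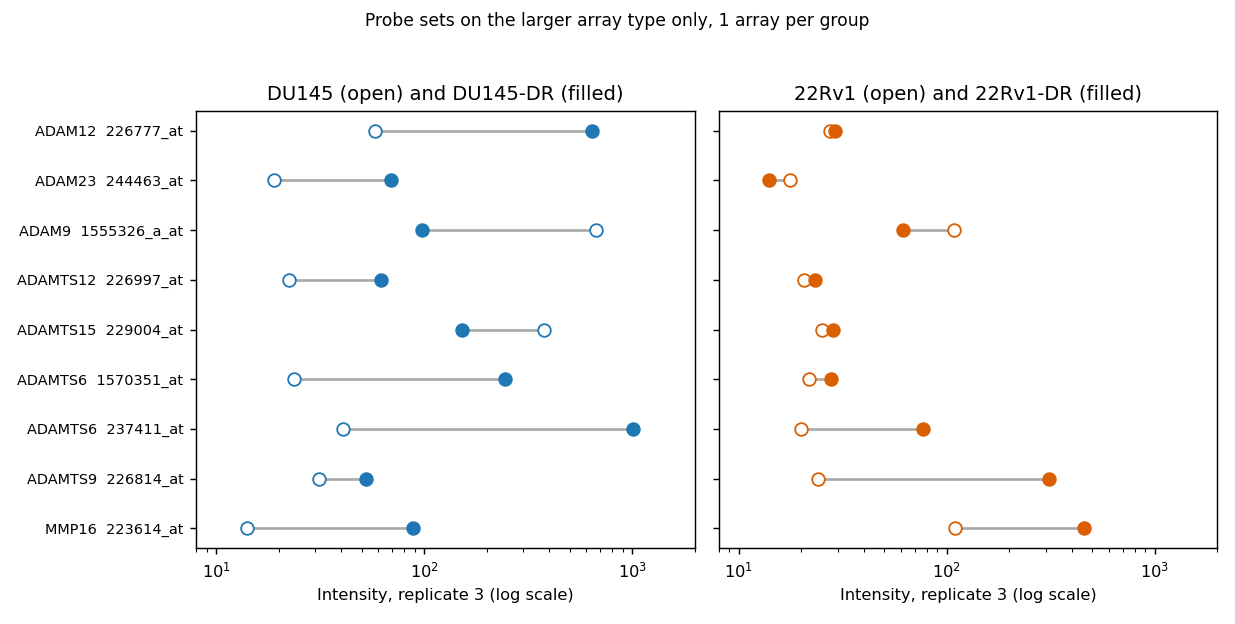
Intensity (log axis) of the 9 probe sets on the larger array type only that differed by at least 1 log2 unit in a line, with 1 array per group (open, parental; filled, resistant). ADAMTS6 237411_at goes from 40.8 to 1009.9 between DU145 and DU145-DR, and ADAMTS9 226814_at from 24.1 to 311 between 22Rv1 and 22Rv1-DR.

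Genes that act with these proteases were counted in 5 lists, by the same test. For each list the shares of all genes to set beside the counts are those above, 5.53% rising and 5.48% falling in DU145-DR and 3.13% and 2.43% in 22Rv1-DR, or 35.5% and 22.1% in either direction with the block. Among 18 tested activators and surface partners, 0 rose and 3 fell in DU145-DR: CD9 (-1.28 ± 0.19; limma adjusted p = 0.00445) and TSPAN15 (-1.25 ± 0.25; limma adjusted p = 0.0149), tetraspanins that associate with ADAM10 or ADAM17, and PLAU (-1.23 ± 0.31; limma adjusted p = 0.0364), the urokinase that activates plasminogen. In 22Rv1-DR 0 of 18 passed in limma, and 5 had an unadjusted p under 0.05. With the block, 2 rose and 6 fell in DU145-DR and 4 rose and 1 fell in 22Rv1-DR. Of 6 other metzincins and ADAMTS-like proteins tested, 0 passed in either line in limma and 1 in each had an unadjusted p under 0.05, and with the block 1 rose and 2 fell in DU145-DR and 1 rose in 22Rv1-DR. The list medians were -0.29 and -0.06 for the partners and 0.03 and 0.02 for the metzincins, in DU145-DR and 22Rv1-DR.

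Of 26 tested cell-surface proteins that are known substrates of shedding, 5 rose and 3 fell in DU145-DR. EREG, the EGF receptor ligand epiregulin, fell by 5.82 ± 0.22 and CDH1 fell by 5.74 ± 0.23, while NOTCH2 rose by 1.98 ± 0.23 and CD44, the hyaluronan receptor, rose by 1.87 ± 0.19 (limma adjusted p = 7.74e-06, 7.74e-06, 0.00114 and 0.000632). In 22Rv1-DR 1 of 26 rose and 4 fell, with CD44 (-4.22 ± 0.19; limma adjusted p = 1.66e-05) going the opposite way and CDH1 (-3.38 ± 0.23; limma adjusted p = 0.000116) the same way. MICA, a ligand of the NKG2D receptor, fell by 1.94 ± 0.22 and the receptor MET by 1.88 ± 0.38 (limma adjusted p = 0.00128 and 0.0230), with the third pair at -2.09 for MICA and -0.18 for MET. With the block 6 rose and 6 fell in DU145-DR and 3 rose and 9 fell in 22Rv1-DR. CDH1 is also one of the epithelial markers above. The list medians were -0.03 in DU145-DR and -0.11 in 22Rv1-DR.

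Of 21 matrix substrates tested, 6 rose and 1 fell in DU145-DR. COL4A5 rose by 6.01 ± 0.29, COL5A1 by 2.64 ± 0.22, COL4A1 by 2.44 ± 0.23 and FBN1, the gene of fibrillin, by 2.02 ± 0.30 (limma adjusted p = 1.52e-05, 0.000253, 0.000400 and 0.00473). In 22Rv1-DR 1 rose, VCAN, and 1 fell, TNC, the gene of tenascin C (-2.52 ± 0.26; limma adjusted p = 0.000753), and with the block 2 rose and 4 fell. THBS1 changed by 1.15 ± 0.29 in 22Rv1-DR, with a limma adjusted p of 0.0614 and of 0.00273 with the block. On the third pair of that line THBS1 differed by 5.06, FN1 by 4.13, TNC by -2.92 and LTBP1 by -1.62. The list medians were 0.21 in DU145-DR and 0.00 in 22Rv1-DR, and 0.05 and 0.14 on the third pair. COL1A1, COL1A2 and COL3A1 of this list also served as fibroblast markers. In DU145-DR 0 of 6 fibroblast markers tested rose, and the collagens that rose are not among them. The source of these rises was not tested.

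AP-1, ETS and RUNX factors include known regulators of MMP genes. The tested genes of this list were AP-1 and ETS factors only, and RUNX genes were not among them. Of 15 tested, 5 rose and 1 fell in DU145-DR and 7 rose and 0 fell in 22Rv1-DR, with medians of 0.62 and 0.74, and of 0.65 and 0.20 on the third pair. In DU145-DR ATF3 rose by 2.09 ± 0.20, FOS by 1.64 ± 0.28, JUND by 1.52 ± 0.26 and JUN by 1.35 ± 0.24 (limma adjusted p = 0.000442, 0.00769, 0.00776 and 0.0103). In 22Rv1-DR ETV1 rose by 1.96 ± 0.23, FOS by 1.81 ± 0.28, ELK3 by 1.63 ± 0.21 and ATF3 by 1.46 ± 0.20 (limma adjusted p = 0.00160, 0.00619, 0.00277 and 0.00332). The third pair did not follow for FOS, which differed by -1.62 in DU145-DR and -2.10 in 22Rv1-DR, nor for ELK3, at -0.37 in 22Rv1-DR. It was smaller for ATF3 in 22Rv1-DR (0.22) and for JUND (0.65) and JUN (0.47) in DU145-DR, and stood at 3.81 for ATF3 in DU145-DR and 1.73 for ETV1 in 22Rv1-DR. With the block 8 rose and 1 fell in DU145-DR.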

How the data were processed

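Affymetrix arrays were read for 12 samples in 4 groups. The authors deposited 2 tables of linear intensity, with a value per probe set. Per the submitters' processing notes MAS5 and RMA were involved; their roles, order and versions, background correction and scaling were not given in the sources used here. Probe sets were named from the platform annotation supplied: 19064 had 1 symbol, 1043 several and 2108 none, and 31 for Y-linked or X-inactivation genes were left out. The number of arrays limits the precision.

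The probe set brightest by mean log2 stood for each gene, leaving out names marked as cross-hybridizing (_x_at) where others existed. A gene was tested where the mean of at least 1 group was over log2 6.49, the 40th percentile of all values. Values were log2(intensity + 16). All 8 arrays of the smaller type were fitted together with limma 3.58.1 in R 4.3.3 (a term per group, 4 residual and 4.47 prior degrees of freedom). Tests were two-sided, at a threshold of 0.05 after Benjamini-Hochberg adjustment over the 9713 genes. The procedure was tested on simulated data.

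Deviations of replicate 1 from its group mean correlated across genes at 0.693 between DU145 and DU145-DR and at 0.792 between 22Rv1 and 22Rv1-DR, against 0.0688 to 0.123 across lines, so equal numbers within a line were taken as pairs; the labels do not say what they share. The highest correlation between 2 arrays was 0.992, and 0 pairs of arrays were identical.

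Members, gene lists and tests were chosen with earlier results of these data known. Named were members past the threshold, 20 well-studied members whatever their result where measured, and up to 4 passing genes per list and line. ADAM22, ADAM23, MMP24, THBS1, FN1, LTBP1 and the probe sets of the larger array type were named after their values were seen. Promoter sequences are from RefSeq (GRCh38.p14), with 30 of 52 members matched. Alternatives were a replicate block, quantile normalization, a pseudocount of 1 or of 64, the filter left out or set at the 60th percentile, averaging the probe sets per gene, every probe set fitted, only the 4 arrays of a line, all 12 arrays with the table as a block, each array left out in turn and, added after seeing the data, a pseudocount of 1 with the probe set chosen again.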

Additional observations from a re-analysis of the deposited data

Results flagged for a closer look

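The change differed between the 2 lines, by a test of the difference itself, for 3 members. ADAM12 (-2.34) and ADAM19 (-2.04) changed less in 22Rv1-DR than in DU145-DR, in log2 units of 22Rv1 change minus DU145 change, and ADAMTS1 (1.07) changed more; the limma adjusted p-values were 0.00303, 0.00217 and 0.0368. ADAM12 and ADAM19 lay near the floor in 22Rv1 and 22Rv1-DR, and ADAMTS1 started close to the floor in DU145. The ADAMTS1 difference did not pass with a pseudocount of 1 (limma adjusted p = 0.0733) or over all 12 arrays (limma adjusted p = 0.465). On the larger array type ADAMTS1 read 13.7 in DU145 and 71.0 in DU145-DR, and 86.2 in 22Rv1 and 556 in 22Rv1-DR.

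Probe sets found only on the larger array type, which enter no test, showed large differences between single arrays. In DU145-DR against DU145 these were ADAM12 226777_at (3.15 log2 units), ADAMTS6 237411_at (4.18) and ADAMTS6 1570351_at (2.72). In 22Rv1-DR against 22Rv1 it was ADAMTS9 226814_at (3.03).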

How the results depend on the processing

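Over 33 changes of named members and their alternatives, 614 values were computed. Of these 573 kept their direction and side of the threshold or, where not past it, stayed there (22 of them with the other sign), 23 lost the threshold, 16 gained it and 2 reversed. The reversed values were ADAM12 in DU145-DR with a pseudocount of 1 and the probe set chosen again (-0.045) and MMP1 in DU145-DR without DU145-DR replicate 1 (-1.40, against 1.98 without DU145-DR replicate 2). The count of members changed was 4 in DU145-DR, 2 in 22Rv1-DR and 3 for the difference between lines. With the replicate block it was 7, 6 and 9, and all calls of the unpaired fit were kept. Over all 12 arrays with the table as a block it was 1 in 22Rv1-DR and 1 for the difference. With only the 4 arrays of the line it was 6 in 22Rv1-DR, and with a pseudocount of 1 and the probe set chosen again it was 1 for the difference. Leaving out each array in turn gave 3 to 7 in DU145-DR, 1 to 4 in 22Rv1-DR and 2 to 7 for the difference; the highest counts came without DU145-DR replicate 2 (7, 4 and 7; in 22Rv1-DR also without DU145-DR replicate 1), and the count of 1 in 22Rv1-DR came without any 1 of the 22Rv1 or 22Rv1-DR arrays. The rises of ADAM19 in DU145-DR and of ADAMTS1 in both lines passed under every alternative run, and that of ADAM12 under every one except the reversed. The causes of these shifts were not tested. Dim members near the floor have changes that depend on the pseudocount.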
